A study of Mus musculus with 10 samples.

Results

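Genes of adenosine and ATP signalling were followed in the mouse hippocampus after pilocarpine (PILO)-induced status epilepticus (SE), with and without levetiracetam (LEV), an antiseizure drug that binds the synaptic vesicle protein SV2A. The members were the 10 genes *Adora1*, *Adora2a*, *Adora2b*, *Adk*, *Slc29a1*, *Nt5e*, *Entpd1*, *P2rx4*, *P2rx7* and *P2ry6*, taken by symbol from a table of 15900 genes. All 10 had a row, and all 10 were among the 15851 genes that passed the filter on low values and were tested.

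RNA was measured by cap analysis of gene expression (CAGE), which sequences the capped 5′ ends of transcripts and counts tags at transcription start sites. Levels are given as CPM, the tags of a gene scaled to a common library size. Since 1 tag stands for 1 capped end whatever the transcript's length, levels of different genes can be set side by side as numbers of 5′ ends. There were 5 groups of 2 mice each. The pre-SE mice are labelled untreated, although the methods describe controls given saline in place of PILO, so whether they were injected is not settled. The SE 6 h mice were sampled 6 h after SE and the SE 2 days mice after 2 days. The SE + LEV 6 h and SE + LEV 2 days mice were sampled at the same times and had received LEV by mouth at 360 mg/kg, 1 dose before the 6 h sample and 5 doses before the 2-day sample. Per the study's methods all were male ICR mice, an outbred stock, 9 to 10 weeks old when SE was induced. Every SE mouse, with or without LEV, had been given methyl scopolamine ahead of PILO at 290 mg/kg and diazepam to end the seizures. Diazepam was repeated as needed, and the amount each mouse received is not given, so it may differ between the LEV and SE groups. The methods describe no vehicle by mouth for SE mice without LEV, so LEV and its dosing by mouth cannot be told apart. Methyl scopolamine, diazepam, PILO and the seizures cannot be told apart in a comparison with pre-SE mice.

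Cells under strain release ATP, and enzymes on cell surfaces strip its phosphates step by step until adenosine remains. ATP and UDP act on P2X channels and P2Y receptors, several of which sit on microglia, the resident immune cells of the brain. Adenosine acts on its own receptors, of which the A1 receptor damps transmitter release in the hippocampus, and it is cleared by uptake and by adenosine kinase, which is best known in epilepsy for its rise in scarred, astrocyte-rich tissue.

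As inferred from the steps of the CPM values, the libraries held 10540698 to 51710968 tags, a 4.91-fold range, so that 3 tags corresponded to 0.058 to 0.285 CPM. The hippocampal markers were present in every library, with 6 of 7 genes in the table and summed levels of 369 to 555 CPM. Choroid plexus markers, 4 of 5 in the table, differed strongly between mice of the same group: their sum was 12.6 and 1710 CPM in the pre-SE mice and 8.72 and 4020 CPM at 6 h after SE. Under LEV at 6 h the sums ranged from 41.3 to 869 CPM, at 2 days from 23.0 to 67.9 without LEV and from 27.0 to 1510 under LEV. In bulk tissue, fewer cells of a type and less RNA per cell cannot be told apart. With 2 mice against 2, an exact permutation test cannot give a two-sided p below 0.333, so the p-values here come from limma, which shares the spread between mice across the 5 groups and across genes. They are adjusted over all 15851 genes by the Benjamini-Hochberg method, and a gene was called at an adjusted p of at most 0.05. A logFC is a difference of log2(CPM + 0.1), a scale that understates the change of genes with few tags. All comparisons with pre-SE share the same 2 pre-SE mice. Over all genes the median logFC against pre-SE was -0.13 at 6 h and -0.03 at 2 days.

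Of the 10 members, *P2ry6* was the gene that was called. It was higher in SE 6 h, SE 2 days and SE + LEV 2 days mice than in pre-SE mice, and higher at 2 days than at 6 h after SE. No member was called lower in any comparison. The members, and the pathway list used below, were chosen with earlier results of these data known. The shares of all genes are therefore given for scale only, and no excess over them was tested. At 6 h after SE, 1 of 10 members was called higher and 0 lower, against 2.76% and 0.202% of all genes tested. With no adjustment, a limma p under 0.05 was reached at 6 h by 3 members with a higher level (*P2ry6*, *P2rx7* and *Entpd1*), against 9.21% of all genes, and by 0 with a lower level, against 8.51%. In 4 members both SE 6 h mice lay above both pre-SE mice and in 3 members both lay below, against 18.6% and 31.3% of all genes. At 2 days after SE, 1 of 10 was called higher and 0 lower, against 5.07% and 0.593% of all genes. With no adjustment, 3 members (*P2ry6*, *P2rx7* and *P2rx4*) had a limma p under 0.05 with a higher level at 2 days and 1 (*Adk*) with a lower level, against 12.5% and 7.29%. Both SE 2 days mice lay above both pre-SE mice in 6 members and below in 2, against 26.3% and 25.6%. The 6 include *Adora2a*, with 1 to 6 tags per library, and *Nt5e*, with 2 to 78. The median logFC of the members was 0.07 at 6 h and 0.63 at 2 days.

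**Figure D1:**
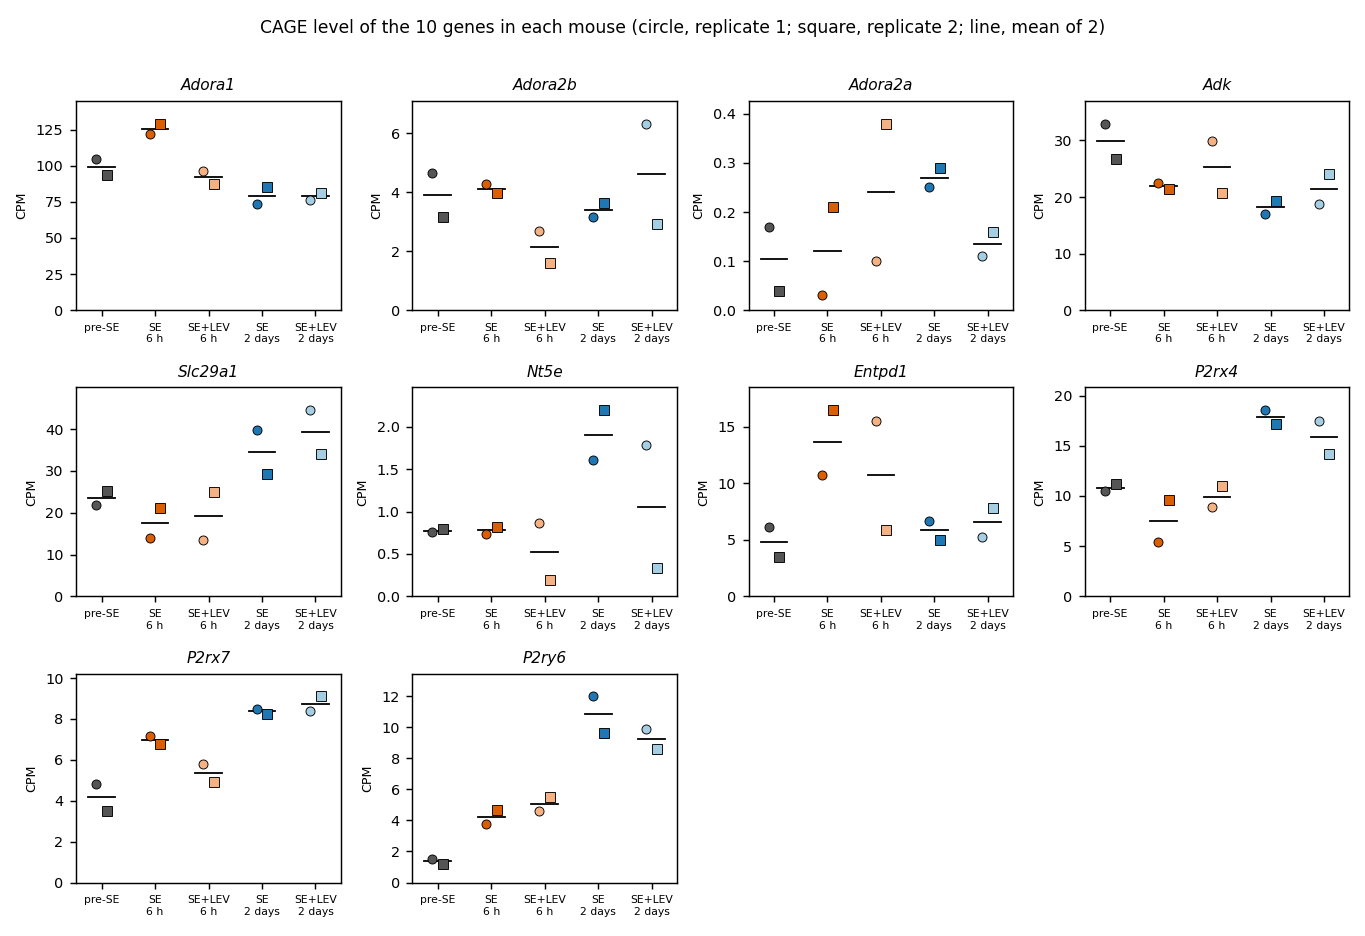
CAGE level (CPM, linear axes from 0) of each of the 10 genes in each of the 10 mice by group, with circles for replicate 1, squares for replicate 2 and a line at the mean of 2. *P2ry6* lay at 1.20 to 1.52 CPM in pre-SE mice and at 9.65 to 12 CPM in SE 2 days mice, whereas *Adora1* ranged from 73.22 to 129.02 CPM.

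The promoters of the members that have an entry in the RefSeq table of the assembly GRCm38.p6 are shown here as the 250 bases before an annotated start. Windows were matched for 8 of the 10 members, 19 windows in all, and not for *Adora2a* and *P2ry6*. Each window was searched on both strands for 5 motifs. These were the AP-1 motif TGANTCA, the core GAGGAA of ETS factors such as PU.1, the TATA box TATAAA, the E-box CACGTG and the NF-kappaB motif. The AP-1 motif is shown because AP-1 factors are encoded by genes induced by seizures. It was found in 2 of the 19 windows, of *Adora1* and *P2rx7*, and in 6.75% of 32851 windows of all genes. The GAGGAA core was in 3 windows of members, of *Entpd1* and *Slc29a1* (23.3% of all windows), the E-box and the NF-kappaB motif in 1 window each, of *Slc29a1* (6.02% and 3.90% of all), and the TATA box in 0 (12.4% of all). The following windows are those of both members with an AP-1 match, and of *P2rx4*, the neighbour of *P2rx7*, which had none of the 5 motifs. They are read 5′ to 3′ on the strand of the gene, with the AP-1 match in capitals, and come from the reference genome, not from ICR mice. The windows are chr1:134235458-134235707 (minus strand) for *Adora1*, chr5:122643677-122643926 (plus strand) for *P2rx7* and chr5:122707294-122707543 (plus strand) for *P2rx4*.
Adora1: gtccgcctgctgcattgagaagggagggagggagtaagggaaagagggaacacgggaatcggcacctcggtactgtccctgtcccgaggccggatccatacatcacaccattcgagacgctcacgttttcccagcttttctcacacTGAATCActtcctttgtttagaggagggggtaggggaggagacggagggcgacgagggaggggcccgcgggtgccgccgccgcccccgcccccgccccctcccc
P2rx7: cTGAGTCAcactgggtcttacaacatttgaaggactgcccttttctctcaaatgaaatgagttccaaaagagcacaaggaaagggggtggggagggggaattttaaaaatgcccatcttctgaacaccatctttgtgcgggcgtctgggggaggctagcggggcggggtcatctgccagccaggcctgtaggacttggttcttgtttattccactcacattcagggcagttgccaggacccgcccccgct
P2rx4: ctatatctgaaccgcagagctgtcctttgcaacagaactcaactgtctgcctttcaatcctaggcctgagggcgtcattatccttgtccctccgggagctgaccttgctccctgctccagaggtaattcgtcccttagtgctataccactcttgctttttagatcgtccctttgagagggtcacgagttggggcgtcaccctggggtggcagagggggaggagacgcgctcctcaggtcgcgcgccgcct
The match began 104 bases before the start in *Adora1* and 249 bases before the start in *P2rx7*. A match describes the letters in the window only.

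*Adora1*, which encodes the inhibitory A1 receptor, was the most abundant member in every library. Its gene lies on chromosome 1 of mm9 at 136095800 to 136132008 on the minus strand and overlaps *Mybph* on the other strand. The level of *Adora1* was 104.53 and 93.40 CPM in pre-SE mice (replicates 1 and 2, the order kept below). It was 122.20 and 129.02 CPM at 6 h after SE, and 96.26 and 87.38 at that time under LEV. At 2 days it was 73.22 and 85.45 CPM without LEV, and 76.29 and 81.41 under LEV. Both SE 6 h mice thus lay above all 8 other mice, and all 4 mice sampled at 2 days lay below all others. The mean was 99.0 ± 7.87 CPM (SD, n = 2) before SE, 126 ± 4.82 at 6 h and 79.3 ± 8.65 at 2 days. Between 6 h and 2 days the logFC of *Adora1* was -0.67 (SE 0.20), with a limma adjusted p of 0.097. SE + LEV 6 h mice differed from SE 6 h mice by a logFC of -0.45 (SE 0.20), with a limma adjusted p of 1, so the difference was not called. The summed neuronal markers (8 of 8 genes) were 9150 to 10200 CPM before SE, 5870 to 8700 at 6 h and 5060 to 6210 at 2 days, and their part in the *Adora1* levels was not tested.

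The other adenosine receptors were far lower. *Adora2b*, for the low-affinity A2B receptor, lies on chromosome 11 of mm9 at 62062486 to 62079955. It was measured at 4.66 and 3.15 CPM before SE, 4.27 and 3.97 at 6 h, 2.69 and 1.61 under LEV at 6 h, 3.18 and 3.63 at 2 days, and 6.33 and 2.92 under LEV at 2 days. The SE + LEV 6 h mice were the lowest group, below all other mice, and the other groups overlapped their neighbours in the order of means. Between the LEV groups the logFC from 6 h to 2 days was 1.01 (SE 0.44), with a limma adjusted p of 0.40. In both LEV groups the mouse with more *Adora2b* was also the one with the higher choroid plexus sum. In the pre-SE, SE 6 h and SE 2 days groups it was the other mouse, and the part of that tissue was not tested.

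*Adora2a*, for the A2A receptor that is typical of the striatum, lies on chromosome 10 of mm9 at 74779688 to 74797533. It reached 0.38 CPM at most, from 1 to 6 tags per library, and 4 libraries held 3 tags or fewer. No change in it was detectable at this depth. The 8 striatal markers, all in the table, summed to 175 to 194 CPM before SE, 267 to 313 at 6 h, 233 to 249 under LEV at 6 h, 306 to 619 at 2 days and 180 to 374 under LEV at 2 days. Of the 8, *Pde10a* was called higher at 6 h, and *Drd1a* (2.81-fold) and *Penk* (12.26-fold) at 2 days, while *Drd2*, a defining marker of the striatal cells that carry A2A, was at 0.04 to 0.18 CPM in all libraries. Their part in the level of *Adora2a* was not tested. As a share of the 3 adenosine receptor genes among the members, *Adora1* made up 92.2% to 97.8% of tags in the 10 libraries. The remaining adenosine receptor gene, *Adora3*, which is not a member, was at 0 to 0.21 CPM.

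Of the 4 members that form or clear adenosine, none was called, and the differences from pre-SE were not all in 1 direction. *Adk* encodes adenosine kinase, which turns adenosine back into AMP, and lies on chromosome 14 of mm9 at 21871855 to 22267769, with a 7SK gene on the same strand within it. Its level was 32.97 and 26.74 CPM before SE, 22.48 and 21.38 at 6 h, 29.84 and 20.68 under LEV at 6 h, 17.09 and 19.30 at 2 days, and 18.81 and 24.03 under LEV at 2 days. Both pre-SE mice lay above the SE 6 h, SE 2 days and SE + LEV 2 days mice, but groups next to each other in the order of means all overlapped. At 2 days the logFC of *Adk* against pre-SE was -0.71 (SE 0.27), with a limma adjusted p of 0.18. The summed astrocyte markers (8 of 8 genes) at that time were 3610 to 5020 CPM, above the 2350 to 2530 CPM before SE, and 2 of the 8, *Gfap* and *Aqp4*, were called higher and 0 lower. Without *Gfap*, the other 7 markers summed to 2120 to 2280 CPM before SE and 1330 to 1380 CPM at 2 days. Most of that sum was *Slc1a2*, at 1546.80 and 1484.23 CPM before SE and 786.25 and 808.71 at 2 days. Among the 7, *Slc1a2* had a logFC of -0.93 (SE 0.25, limma adjusted p = 0.061), *Slc1a3* of -0.73 (SE 0.25, limma adjusted p = 0.13) and *Gja1* of -0.98 (SE 0.42, limma adjusted p = 0.23). Others were higher, with a logFC of 1.57 for *Aqp4* (SE 0.29), 1.19 for *Aldh1l1* (SE 0.37) and 0.97 for *Sox9* (SE 0.32). The median logFC of all 8 markers was 0.37. The part of the astrocyte markers in the level of *Adk* was not tested.

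*Slc29a1*, for the equilibrative transporter ENT1 that carries adenosine across membranes, lies on chromosome 17 of mm9 at 45722149 to 45736555 and overlaps *Gm17080* on the other strand. Its level was 21.83 and 25.28 CPM before SE, 13.98 and 21.24 at 6 h, 13.59 and 24.95 under LEV at 6 h, 39.77 and 29.28 at 2 days, and 44.62 and 34.05 under LEV at 2 days. All 4 mice at 2 days were above all 6 others. The logFC from 6 h to 2 days was 0.98 (SE 0.35, limma adjusted p = 0.15) without LEV. With LEV it was 1.08 (SE 0.35, limma adjusted p = 0.21).

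*Entpd1* and *Nt5e* encode CD39 and CD73, the surface enzymes that take ATP and ADP to AMP and AMP to adenosine. *Entpd1*, on chromosome 19 of mm9 at 40686856 to 40816092, spans *Gm16027* and *Gm8783* on its own strand. It was measured at 6.17 and 3.46 CPM before SE, 10.78 and 16.51 at 6 h, 15.52 and 5.88 under LEV at 6 h, 6.70 and 4.97 at 2 days, and 5.28 and 7.84 under LEV at 2 days. Both SE 6 h mice were above all pre-SE and 2-day mice, and the SE + LEV 6 h mice were split between high and low. The logFC of *Entpd1* at 6 h was 1.51 (SE 0.49), with a limma adjusted p of 0.15, and from 6 h to 2 days it was -1.20 (SE 0.49, limma adjusted p = 0.21). In both 6 h groups and in the SE 2 days group the mouse with more *Entpd1* was also the one with the higher choroid plexus sum. In the pre-SE and SE + LEV 2 days groups it was the other mouse, and the part of that tissue was not tested. The summed endothelial markers (8 of 8 genes) were 77.5 to 78.4 CPM before SE, 138 to 202 at 6 h and 135 to 152 at 2 days, and their part was not tested either.

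*Nt5e*, on chromosome 9 of mm9 at 88222447 to 88266927, was low, at 2 to 78 tags per library. Its values were 0.76 and 0.79 CPM before SE, 0.74 and 0.82 at 6 h, 0.86 and 0.19 under LEV at 6 h, 1.61 and 2.2 at 2 days, and 1.78 and 0.33 under LEV at 2 days. Both SE 2 days mice were above all mice outside the 2-day groups, whereas 1 SE + LEV 2 days mouse was as high and the other lay among the low values, and no comparison of *Nt5e* was called.

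The ATP-gated channels *P2rx7* and *P2rx4* are neighbours on chromosome 5 of mm9 (plus strand), at 123093920 to 123141441 and 123157593 to 123179747, 16151 bases apart. P2X7 opens at high ATP and is tied to the release of interleukin 1 beta from microglia, and P2X4 responds to lower ATP. *P2rx7* was measured at 4.83 and 3.50 CPM before SE, 7.18 and 6.78 at 6 h, 5.78 and 4.93 under LEV at 6 h, 8.48 and 8.26 at 2 days, and 8.37 and 9.12 under LEV at 2 days. In the order of its group means each group lay wholly above the next, except at the top, where both 2-day groups overlapped. The logFC of *P2rx7* against pre-SE was 0.75 (SE 0.30, limma adjusted p = 0.23) at 6 h and 1.01 (SE 0.30, limma adjusted p = 0.088) at 2 days. With LEV at 2 days it was 1.07 against pre-SE (SE 0.30, limma adjusted p = 0.12), so none of these passed the threshold. From 6 h to 2 days with LEV it was 0.70 (SE 0.30, limma adjusted p = 0.40).

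*P2rx4* had a different course. Its level was 10.45 and 11.18 CPM before SE, 5.45 and 9.59 at 6 h, 8.87 and 11 under LEV at 6 h, 18.57 and 17.19 at 2 days, and 17.49 and 14.21 under LEV at 2 days. Both SE 6 h mice were below the pre-SE mice, and all 4 mice at 2 days were above all others. Between 6 h and 2 days the logFC of *P2rx4* was 1.29 (SE 0.32), with a limma adjusted p of 0.054, just above the threshold. Against pre-SE it was 0.72 at 2 days (SE 0.32, limma adjusted p = 0.25). Within a library the ratio of *P2rx4* to *P2rx7* tags was 2.16 and 3.19 before SE, 0.759 and 1.41 at 6 h, 1.53 and 2.23 under LEV at 6 h, 2.19 and 2.08 at 2 days, and 2.09 and 1.56 under LEV at 2 days. The ratio in both SE 6 h mice was below that in every other mouse.

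*P2ry6* encodes P2Y6, a receptor for UDP through which microglia are known to be prompted to engulf material. Its gene lies on chromosome 7 of mm9 at 108086152 to 108112905 on the minus strand, 32180 bases from *P2ry2*. The level of *P2ry6* was 1.52 and 1.20 CPM before SE, 3.78 and 4.66 at 6 h and 4.62 and 5.50 with LEV at 6 h. It was 12 and 9.65 CPM at 2 days and 9.90 and 8.58 with LEV at 2 days. Both pre-SE mice were the lowest of the 10, all 4 mice at 6 h lay between them and the 2-day mice, and at each time the groups with and without LEV overlapped.

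The mean of *P2ry6* rose from 1.36 ± 0.226 CPM (SD, n = 2) before SE to 4.22 ± 0.622 at 6 h and 10.8 ± 1.66 at 2 days. The logFC at 6 h was 1.57 (SE 0.32), 2.96-fold, with a limma adjusted p of 0.030. That call was lost when either pre-SE mouse or either SE 6 h mouse was left out, with the limma adjusted p over the 10 leave-outs between 0.038 and 0.21. At 2 days the logFC was 2.90 (SE 0.32), 7.48-fold, with a limma adjusted p of 0.0013, and the call held in all 10 leave-outs. From 6 h to 2 days it was 1.34 (SE 0.32), 2.53-fold, with a limma adjusted p of 0.047. This call rests on all 10 mice being in the fit: leaving out any 1 of them gave an adjusted p between 0.052 and 0.22. In that comparison 1 of 10 members was called higher, against 3.14% of all genes, and 0 lower, against 1.11%. With no adjustment, 3 members (*P2ry6*, *P2rx4* and *Slc29a1*) had a limma p under 0.05 with a higher level and 2 (*Adora1* and *Entpd1*) with a lower level, against 12.8% and 7.29%. Both SE 2 days mice lay above both SE 6 h mice in 6 members and below in 4, against 31% and 20.1%. These 6 also include *Adora2a*, with 1 to 6 tags per library, and *Nt5e*, with 2 to 78.

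**Figure D2:**
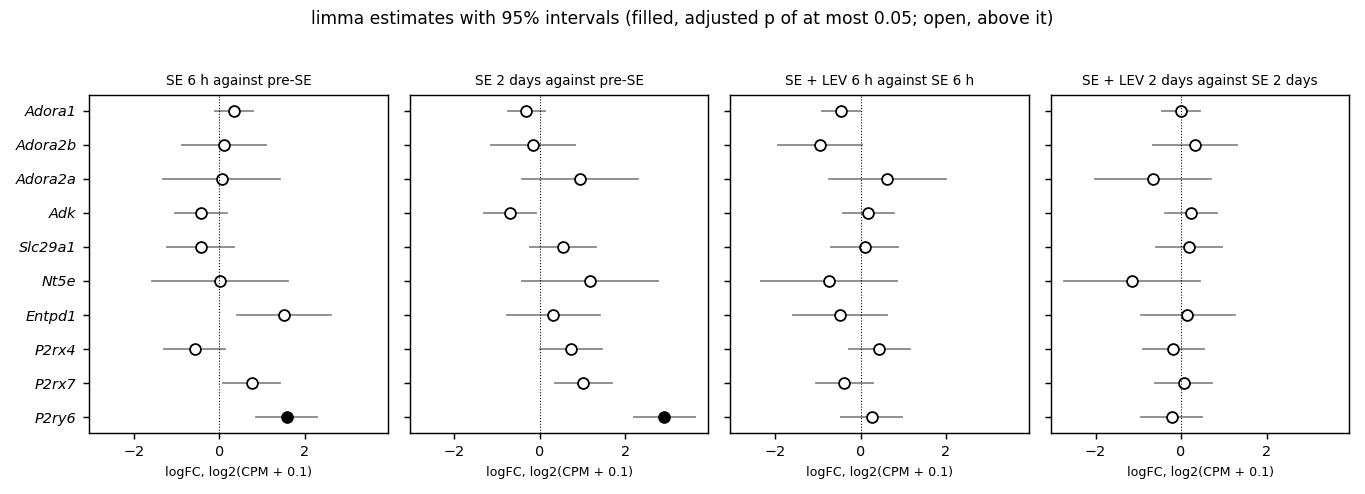
Limma logFC of the 10 genes with 95% intervals (difference of log2(CPM + 0.1)) in 4 comparisons, filled where the adjusted p was at most 0.05. *P2ry6* was filled in both comparisons of SE with pre-SE (1.57 and 2.90), and no gene was filled in either comparison of SE + LEV with SE.

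The comparison of SE + LEV with SE mice asks what LEV changed after SE. No member was called. At 6 h limma called 0 of 10 members higher and 0 lower, against 0% and 0.0126% of all genes, and with no adjustment 0 members had a limma p under 0.05 with a higher level and 1 (*Adora1*) with a lower one, against 1.16% and 3.42%. Both SE + LEV 6 h mice lay below both SE 6 h mice in 3 members, *Adora1*, *Adora2b* and *P2rx7*, and above in 0, against 13.4% and 16.1% of all genes. At 2 days limma called 0 higher and 0 lower, against 0% and 0% of all genes, and 0 and 0 had an unadjusted p under 0.05, against 1.31% and 1.39%. Both SE + LEV 2 days mice lay below both SE 2 days mice in 1 member, *Adora2a*, the gene with 1 to 6 tags per library, and above in 0, against 12.2% and 15.2%. For *P2ry6* the logFC of SE + LEV against SE was 0.26 at 6 h (95% interval -0.46 to 0.97, limma adjusted p = 1) and -0.22 at 2 days (-0.94 to 0.49, limma adjusted p = 1). With intervals of this width the estimates do not show that the level was alike with and without LEV. The test of whether the LEV difference itself changed between 6 h and 2 days called 0 of 10 members in limma, against 0% of all genes in either direction. With no adjustment 0 members passed a p of 0.05 in either direction, against 1.58% and 0.795%.

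Against pre-SE, the LEV-treated mice gave a logFC of *P2ry6* of 1.82 at 6 h (SE 0.32, limma adjusted p = 0.055) and 2.68 at 2 days (SE 0.32, limma adjusted p = 0.0032). The 2-day value was 6.42-fold. In these comparisons 0 and 1 of 10 members were called higher, against 0.315% and 2.83% of all genes, and 0 and 0 lower, against 0.00631% and 0.0189%. With no adjustment, limma gave 1 member higher (*P2ry6*) and 0 lower at a p under 0.05 at 6 h, against 5.53% and 3.85%. At 2 days it gave 2 higher (*P2ry6* and *P2rx7*) and 0 lower, against 8.86% and 1.91%. From 6 h to 2 days with LEV, 0 of 10 members were called, against 2.06% higher and 0.0757% lower of all genes. Limma gave 4 of them (*P2ry6*, *P2rx7*, *Slc29a1* and *Adora2b*) higher with an unadjusted p under 0.05 and 0 lower, against 9.22% and 2.7%. The logFC of *P2ry6* there was 0.86 (SE 0.32, limma adjusted p = 0.31).

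Markers of immune cells also differed between the groups. At 6 h the summed microglial markers were lower than before SE, whereas the levels of *P2ry6* and *P2rx7* were higher, and at 2 days all of these were higher. The 9 microglial markers, all in the table, summed to 360 to 441 CPM before SE, 289 to 309 at 6 h, 281 to 300 with LEV at 6 h, 931 to 1220 at 2 days and 973 to 1310 with LEV at 2 days. Of these 9, 0 were called higher and 1 lower at 6 h, *Tmem119*. At 2 days 4 were called higher and 0 lower. The 6 of 7 monocyte and macrophage markers in the table, which do not include *Ccr2*, summed to 6.75 to 7.19 CPM before SE, 16.0 to 17.9 at 6 h, 9.86 to 17.2 under LEV at 6 h, 79.8 to 126 at 2 days and 27.8 to 141 under LEV at 2 days. Of these 6, 1 was called higher at 6 h and 4 at 2 days. Their part in the level of *P2ry6* was not tested.

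Per 100 CPM of microglial markers, *P2ry6* stood at 0.423 and 0.272 before SE, 1.22 and 1.61 at 6 h, 1.54 and 1.96 under LEV at 6 h, 1.29 and 0.794 at 2 days, and 0.753 and 0.882 under LEV at 2 days. On this scale all 8 mice after SE were still above both pre-SE mice, and 3 of the 4 mice at 2 days were below all 4 mice at 6 h. *P2rx7* on the same scale was 1.34 and 0.795 before SE, 2.32 and 2.34 at 6 h, 1.93 and 1.76 under LEV at 6 h, 0.911 and 0.679 at 2 days, and 0.637 and 0.937 under LEV at 2 days. Its 4 mice at 6 h were above all others, and the 2-day mice overlapped the pre-SE mice. *P2rx4* on that scale was 2.91 and 2.54 before SE and 1.99 and 1.41 at 2 days, with the SE 6 h mice at 1.76 and 3.32.

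**Figure D3:**
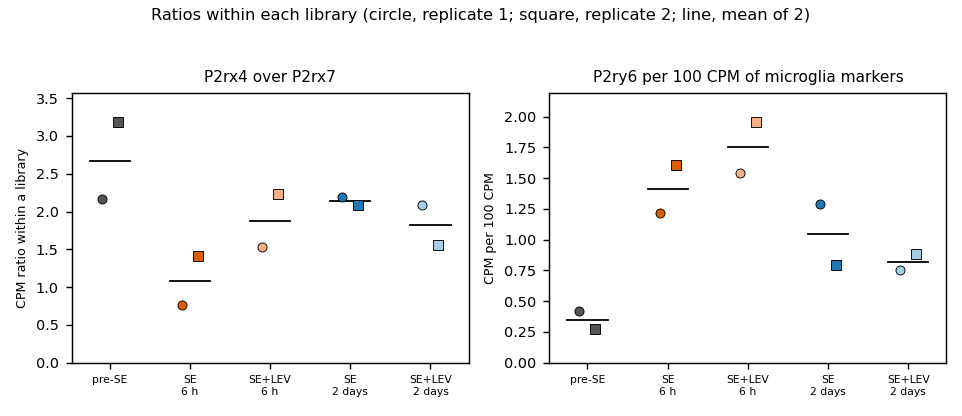
Ratio of *P2rx4* to *P2rx7* tags (left) and *P2ry6* level per 100 CPM of summed microglial markers (right) in each mouse by group, with circles for replicate 1, squares for replicate 2 and a line at the mean of 2, on linear axes from 0. The SE 6 h mice had the lowest *P2rx4* to *P2rx7* ratios (0.759 and 1.41), and the pre-SE mice the lowest *P2ry6* values (0.423 and 0.272).

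The 3 genes whose levels followed *P2ry6* most closely, by Pearson's r of log2(CPM + 0.1) over the 10 libraries among 12552 genes with a mean of at least 1 CPM, were *Tgfb1* (r = 0.985), *Galntl2* (0.972) and *Gbp2* (0.970). *Tgfb1* encodes transforming growth factor beta 1 and *Gbp2* an interferon-inducible GTPase. *Tgfb1* was measured at 6.45 and 4.68 CPM before SE, 12.35 and 14.18 at 6 h, and 28.32 and 27.85 at 2 days. The points share the 5 groups of mice, and these r are the highest of many, so they are given as a description only.

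The rest of the pathway was read from a list of 42 genes, of which 30 had a row and were tested. In SE 6 h mice 2 of the 30 were called higher (*Ada* and *P2ry2*) and 1 lower (*P2ry12*), against 2.76% and 0.202% of all genes. At 2 days 2 were higher (*P2ry2* and *Acpp*) and 1 lower (*Panx2*), against 5.07% and 0.593%. From 6 h to 2 days 2 were higher (*Acpp* and *P2ry13*) and 0 lower, against 3.14% and 1.11%, with 8 higher and 1 lower in limma before adjustment, against 12.8% and 7.29%. In SE + LEV against SE mice limma called 0 of 30 at either time, and with no adjustment a p under 0.05 was reached by 3 with a higher and 0 with a lower level at 6 h, against 1.16% and 3.42% of all genes. At 2 days it was reached by 0 and 3, against 1.31% and 1.39%.

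*Ada* encodes adenosine deaminase, which converts adenosine to inosine. Its level was 0.66 and 0.70 CPM before SE, 2.44 and 3.70 at 6 h, 2.86 and 2.47 under LEV at 6 h, 1.78 and 3.06 at 2 days, and 3.66 and 1.97 under LEV at 2 days. Both pre-SE mice were below all 8 mice after SE. At 6 h the logFC was 1.99 (SE 0.44), with a limma adjusted p of 0.041, and the call was kept in 4 of the 10 leave-outs (adjusted p 0.031 to 0.26). *Acpp* encodes prostatic acid phosphatase, which can form adenosine from AMP outside cells. It was measured at 0.34 and 0.43 CPM before SE, 0.38 and 0.55 at 6 h, 1.13 and 1.23 under LEV at 6 h, 2.42 and 1.58 at 2 days, and 1.21 and 0.58 under LEV at 2 days. The SE 2 days mice were the highest, with a logFC of 2.09 against pre-SE (SE 0.45, limma adjusted p = 0.025) and 1.88 against SE 6 h (SE 0.45, limma adjusted p = 0.048). The calls were kept in 6 and 2 of the 10 leave-outs.

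The P2Y receptor genes differed in course. *P2ry2*, for a receptor of ATP and UTP, was measured at 0.31 and 0.31 CPM before SE, 1.86 and 5.21 at 6 h, 1.46 and 1.14 under LEV at 6 h, 2.80 and 2.77 at 2 days, and 2.33 and 0.90 under LEV at 2 days. All 8 mice after SE exceeded the pre-SE mice. Its logFC was 2.98 at 6 h (SE 0.55, limma adjusted p = 0.019) and 2.81 at 2 days (SE 0.55, limma adjusted p = 0.015), kept in 7 and 6 of the 10 leave-outs. *P2ry12* and *P2ry13*, receptors for ADP that are typical of resting microglia, lie 5388 bases apart on chromosome 3 of mm9, and *Med12l* on the other strand overlaps both. *P2ry12* was at 41.45 and 26.88 CPM before SE, 6.51 and 5.14 at 6 h, 18.71 and 14.14 under LEV at 6 h, 18.06 and 16.91 at 2 days, and 20.37 and 52.74 under LEV at 2 days. The SE 6 h mice were the lowest of the 10, with a logFC against pre-SE of -2.51 (SE 0.42, limma adjusted p = 0.012), a call kept in 7 of the 10 leave-outs. Tags of *P2ry6* per tag of *P2ry12* were 0.0367 and 0.0446 before SE, 0.581 and 0.907 at 6 h, 0.247 and 0.389 under LEV at 6 h, 0.664 and 0.571 at 2 days, and 0.486 and 0.163 under LEV at 2 days. All 8 mice after SE were above both pre-SE mice in this ratio.

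*P2ry13* was measured at 4.59 and 2.34 CPM before SE, 1.28 and 0.69 at 6 h, 2.62 and 3.42 under LEV at 6 h, 4.37 and 4.20 at 2 days, and 4.43 and 5.13 under LEV at 2 days. Again the SE 6 h mice were below all others. From 6 h to 2 days its logFC was 2.07 (SE 0.43, limma adjusted p = 0.027), a call kept in 6 of the 10 leave-outs. *Panx2* encodes a pannexin, a relative of the ATP-releasing channel pannexin 1. It was at 26.90 and 25.18 CPM before SE, 20.75 and 13.29 at 6 h, 19.47 and 15.84 under LEV at 6 h, 12.13 and 9.74 at 2 days, and 13.76 and 16.39 under LEV at 2 days. Against pre-SE its logFC was -1.25 at 2 days without LEV (SE 0.29, limma adjusted p = 0.036), kept in 6 of the 10 leave-outs. With LEV at 2 days it was -0.79 (SE 0.29, limma adjusted p = 0.30). For *Panx1*, for pannexin 1 itself, no comparison was called.

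**Figure D4:**
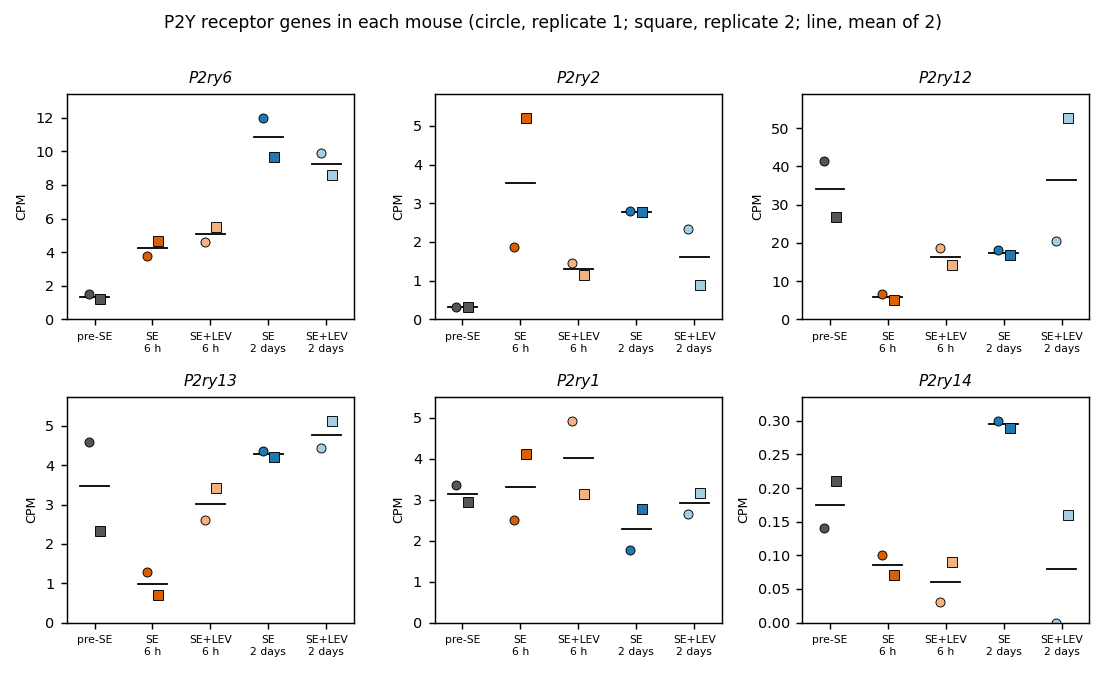
CAGE level (CPM, linear axes from 0) of 6 P2Y receptor genes in each mouse by group, with circles for replicate 1, squares for replicate 2 and a line at the mean of 2. *P2ry12* and *P2ry13* were lowest in the SE 6 h mice (5.14 to 6.51 and 0.69 to 1.28 CPM), while *P2ry6* and *P2ry2* were lowest in the pre-SE mice.

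**Figure D5:**
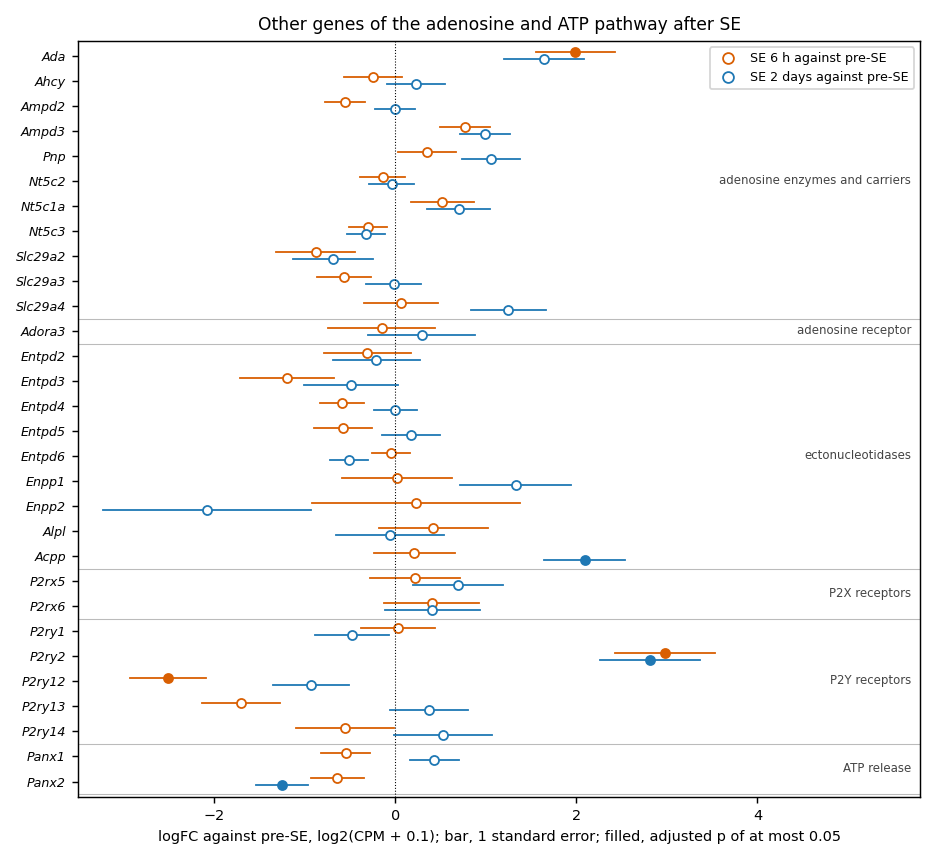
Limma logFC against pre-SE (difference of log2(CPM + 0.1)) of the 30 other pathway genes at both times after SE (6 h and 2 days), with bars of 1 standard error and filled points for an adjusted p of at most 0.05. The filled points at 6 h are *Ada*, *P2ry2* and *P2ry12*, and those at 2 days *Acpp*, *P2ry2* and *Panx2*.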

How the data were processed

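CAGE libraries were made from hippocampal RNA of 10 mice, 2 in each of 5 groups taken from the sample labels. The deposited values are CPM per gene, which the authors made by mapping tags to mm9 and summing them over clusters of start sites that they assigned to genes. The submitters' processing notes name BWA 0.7.17, HISAT2 2.0.5, bedtools 2.12.0 and edgeR 3.22.5. Whether counting used the strand is not given in the sources used here, so tags of overlapping genes are uncertain. All 15900 identifiers were found in the GENCODE M1 annotation of mm9, and all columns of per-mouse values were used.

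The CPM values were whole multiples of 1 tag for 100% of values within their rounding of 0.01 CPM, with the smallest library totals that met this. These totals are inferred, a second check of the steps did not accept whole tags for most columns, and they were used for tag numbers only. They cover counting error only.

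Genes were kept where 2 or more libraries had 0.1 CPM or above, log2(CPM + 0.1) was fitted to the 5 groups with limma 3.58.1 in R 4.3.3 (all 10 libraries in 1 fit, mean-variance trend, moderated test), and 9 comparisons were adjusted by Benjamini-Hochberg. Tested on data simulated for SE 2 days against pre-SE with 15817 genes, the fit called 79 of 100 genes with a log2 change of 1 and 98 of 100 with a log2 change of 2, with 8 false calls. The spread in the simulation was set in advance and not estimated from these mice. These shares therefore check the fit only and do not give how often such changes would be called in these mice. *P2rx7*, with a logFC of 1.01 at 2 days against pre-SE, was not called. Other values were computed in Python 3.11.15 with numpy 2.4.6, pandas 2.3.3 and SciPy 1.17.1, and drawn with matplotlib 3.10.9.

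All 10 members are named. Of the pathway list, genes called in at least 1 comparison are named, and for each member called, the 3 genes most correlated with it. For members, a logFC is printed where its unadjusted p was under 0.05, and always for *P2ry6* in the LEV comparisons. The members and lists were chosen with earlier results of these data known. No source says that mice of a group came from separate cohorts, so the p-values measure only the spread between these mice. The alternatives were 3 other pseudocounts, 2 filters, median-of-ratios rescaling, the replicate number as a block, no trend, fits of the compared groups alone and each mouse left out.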

Additional observations from a re-analysis of the deposited data

How the results depend on the processing

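The count of members called was recomputed under 19 alternatives for each comparison, of which 10 left out a mouse. *P2ry6* at 2 days against pre-SE was called in all 19, with logFC between 2.32 and 3.06 and limma adjusted p between 0.00088 and 0.014. At 6 h against pre-SE the count fell from 1 to 0 with a pseudocount of 1 and with only the groups compared, and ranged from 0 to 1 when a mouse was left out. For SE + LEV 6 h against pre-SE it went from 0 to 1 (*P2ry6*) with a pseudocount of 0.01, a filter of 1 CPM, median-of-ratios rescaling and no trend. For SE + LEV 2 days against pre-SE it fell from 1 to 0 with only the groups compared. From SE 6 h to SE 2 days it fell from 1 to 0 with a pseudocount of 0.01, median-of-ratios rescaling and only the groups compared, rose to 2 (*P2rx4* and *P2ry6*) with the filter of 1 CPM, and was 0 to 0 when a mouse was left out. The cause of these changes was not tested. With the replicate block that count was 0 as well, and the block changed no other count of members. Mice with the same number are different animals, and their deviations from the group means correlated between -0.44 and 0.34 over the 8 pairs of groups, so the numbers were not taken as a pairing.

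Of 570 results for 30 pairs of a gene and a comparison, 500 kept their direction and side of the threshold, 65 no longer passed it, 5 newly passed it and 0 reversed. *Ada* and *P2ry2* at 6 h were called in 10 and 16 of the 19 alternatives. Tests on recovered tag counts with other tools, planned as alternatives, were not run, because the second check did not accept whole tags for most columns. *Adora2a* and *Nt5e* were limited by depth, at 1 to 6 and 2 to 78 tags per library.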

Other observations

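*Enpp2*, which encodes autotaxin, an ectoenzyme of the same family as the nucleotide pyrophosphatases, differed strongly between mice of the same group. It was measured at 107.22 and 458.03 CPM before SE, 79.83 and 851.82 at 6 h, 470.39 and 83.39 under LEV at 6 h, 55.63 and 49.15 at 2 days, and 303.57 and 77.30 under LEV at 2 days. *Ttr*, the defining choroid plexus marker, was at 5.83 and 1667.87 CPM before SE, 4.33 and 3935.71 at 6 h, 843.42 and 29.98 under LEV at 6 h, 55.59 and 13.52 at 2 days, and 1475.00 and 18.89 under LEV at 2 days. In each of the 5 groups the mouse with more *Ttr* also had more *Enpp2*. The logFC of *Enpp2* against pre-SE was -2.08 at 2 days (SE 1.15, limma adjusted p = 0.36). *P2ry6* was at 3.78 and 4.66 CPM in the SE 6 h mice, whose *Ttr* levels were 4.33 and 3935.71 CPM. The mouse with more *Ttr* had more *P2ry6* in the SE 6 h, SE 2 days and SE + LEV 2 days groups. It had less *P2ry6* in the pre-SE and SE + LEV 6 h groups. The part of choroid plexus tissue in the level of *P2ry6* was not tested.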
